A study of Mus musculus with 32 samples.

Results

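The livers described here came from male *Cyp2c70* knockout (KO) and wild-type (WT) mice kept on chow, and were chosen by sex, genotype and diet as the sample labels give them. They were 4 KO mice (1 to 4) and 3 WT mice (2 to 4), 7 of the 32 mice of the series. All were 12 weeks old and on a C57BL/6 background, were fed without fasting, and had the liver flushed with buffer before it was frozen. The KO mice carry a CRISPR-Cas9 deletion that takes out exon 2 of *Cyp2c70*, in a line bred from 1 founder, in all tissues alike. The WT mice carry no allele or agent, and both groups ate chow alone. The other mice of the series were females of both genotypes on chow and mice of both sexes given SC-435, an inhibitor of the ileal bile acid transporter, in the diet. Polyadenylated RNA of whole liver was sequenced, and reads were counted on each of 54532 genes. Nothing in the labels says that mice of a group came from separate litters, so p values measure the spread between these mice.

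A library from 1 more WT male on chow, replicate 1, was left out of every main value because its composition stood apart. Its TMM factor, edgeR's correction for composition, was 0.655 beside 0.992 to 1.24 in the 7 other libraries, and its log2 levels correlated with those of its group at a mean r of 0.907, where the 3 other WT libraries reached 0.985 to 0.988 among themselves. The 7 libraries held 37395618 to 44192999 counted reads. KO mouse 4 had the highest TMM factor of the 7 (1.19) and stood farthest from the WT mice on the first principal component, which carried 57.3% of the variance. On the second (15.2%) KO mice 1 and 2 lay apart from KO mice 3 and 4. Hepatocyte markers were abundant in every liver: *Alb* (albumin) lay between 40300 and 65200 CPM (read counts scaled to library size and TMM factor), and the 17 hepatocyte identity genes summed to between 95941 and 104894 CPM in WT and between 64604 and 100315 CPM in KO livers.

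Bile acids are made from cholesterol in hepatocytes, pumped into bile and mostly recovered in the ileum. In mice, *Cyp2c70* converts chenodeoxycholic acid to the hydrophilic muricholic acids, so that its loss leaves a more hydrophobic and more human-like bile acid pool. Bile acids restrain their own synthesis through the nuclear receptor FXR, and hydrophobic ones injure hepatocytes and bile duct cells, to which the liver responds with bile duct proliferation, recruitment of macrophages and deposition of matrix.

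The targeted gene was examined first. *Cyp2c70* lies on the minus strand of chromosome 19 (GRCm38), and exon 2 is coding sequence at chr19:40183866-40184028. Its 163 bases, shown because they are what the KO allele lacks, are part of a transcript of 1717 bases in 9 exons:
Cyp2c70 exon 2: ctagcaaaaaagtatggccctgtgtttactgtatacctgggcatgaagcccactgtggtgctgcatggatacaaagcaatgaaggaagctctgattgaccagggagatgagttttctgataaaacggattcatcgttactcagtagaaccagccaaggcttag
*Cyp2c70* stood at 544, 592 and 668 CPM in the WT mice and at 197, 179, 163 and 193 CPM in the KO mice. The groups did not overlap, and the KO mean was 30.5% of the WT mean (log2 fold change -1.71, SE 0.11, edgeR adjusted p = 0.000689). An exact two-sided permutation test of the means gave p = 0.0571, the smallest that 35 arrangements of 4 against 3 mice allow. The deposited counts are per gene, so reads from the exons that remain in the KO allele are included and exon 2 itself cannot be read from them.

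Across the genome, genes that were higher in KO livers outnumbered those that were lower. Of 16390 genes with enough counts to test, 522 (3.18%) were called higher and 115 (0.702%) lower. A call required an adjusted p below 0.05 together with a change of more than 1 on the log2 scale. By the adjusted p alone, 718 genes were higher (4.38%) and 478 lower (2.92%). The median log2 fold change over all genes tested was 0.01. The 2 groups did not overlap for 4582 of the genes tested (28.0%). These counts depended on single mice. They were 47 and 25 without WT mouse 2, 23 and 17 without WT mouse 3, 103 and 60 without WT mouse 4, and 229 and 74 without KO mouse 3. With the left-out WT library put back they were 145 and 21. The 3 WT mice also stood apart in clock genes, described below, which limits every call of this comparison.

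**Figure D1:**
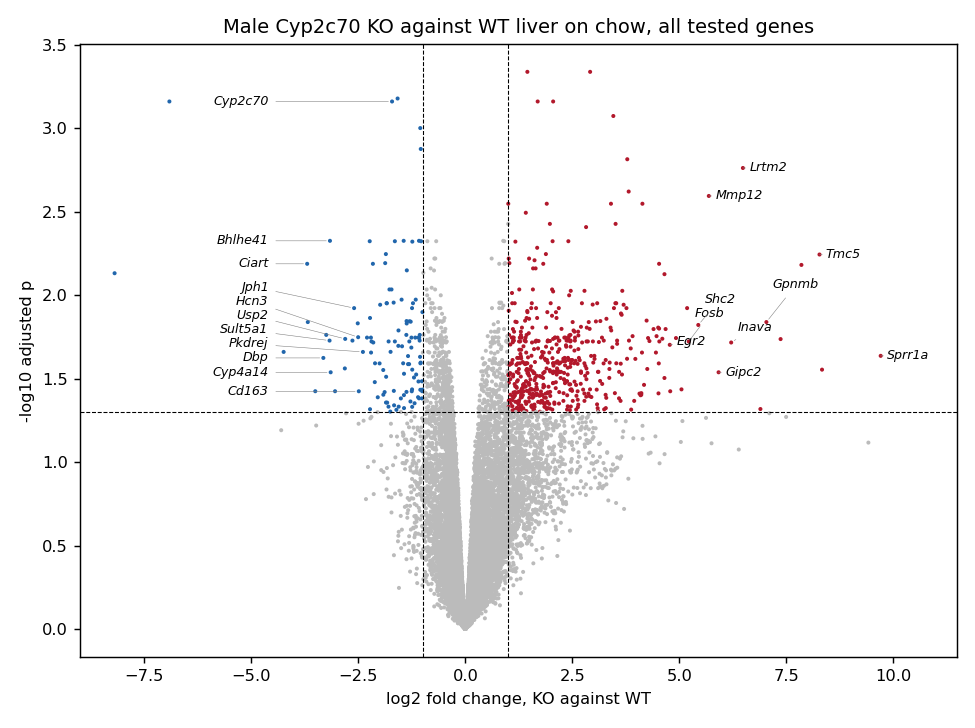
Each point is 1 of 16390 genes, with the log2 fold change of KO against WT on the x axis and -log10 of the adjusted p on the y axis. Red points are the 522 genes called higher, blue points the 115 called lower, dashed lines the thresholds, and the labels mark *Cyp2c70* and the 10 largest rises and falls among well-counted protein-coding genes.

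The largest rises were in genes nearly silent in WT liver. *Sprr1a*, a squamous epithelial envelope protein gene, had 1 read over the 3 WT livers and 1969 over the 4 KO livers, at 2.88, 0.871, 15.7 and 20.5 CPM in KO mice 1 to 4. The ratio of depth-scaled reads was 1194, with a 95% counting interval from 214 to 47165. *Tmc5*, a transmembrane channel-like gene, likewise had 1 WT read against 702, and 1.52 to 5.78 CPM in KO livers (ratio 426, interval 76.1 to 16831, for counting error only). Fitted fold changes for both depend on the offset edgeR adds to low counts.

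*Gpnmb*, a glycoprotein gene of lipid-laden macrophages, stood at 0.0571, 0.205 and 0.515 CPM in WT and at 11.6, 15.4, 24.1 and 86.9 CPM in KO livers (log2 fold change 7.03, SE 1.06, adjusted p = 0.0145). *Mmp12*, the macrophage metalloelastase, ranged from 0.244 to 0.308 CPM in WT and from 9.13 to 25.9 CPM in KO mice (log2 5.69). *Lrtm2* (log2 6.49), *Inava* (6.21), *Gipc2* (5.92) and *Shc2* (5.44) were the other large rises. The immediate early genes *Fosb* (log2 5.22) and *Egr2* (4.78) completed the 10. Their highest values were not in the same mice: *Gpnmb* peaked in KO mouse 4, while *Fosb* was 10 and 16.7 CPM in KO mice 1 and 2 and 6.10 and 1.28 CPM in mice 3 and 4.

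Among the 10 largest falls were 4 genes of the circadian clock, described below: *Ciart*, *Dbp*, *Bhlhe41* and *Usp2*. *Sult5a1*, a cytosolic sulfotransferase gene, fell from 31.9, 46.4 and 70.4 CPM to 8.09, 7.89, 1.30 and 4.76 CPM (log2 -3.17). *Cyp4a14*, a fatty acid omega-hydroxylase and PPARα target, was at 289, 208 and 38.3 CPM in WT and 8.62 to 29.6 CPM in KO livers (log2 -3.15, adjusted p = 0.0289), with WT mouse 4 close to the KO range. *Cd163*, the haemoglobin scavenger receptor of resident macrophages, was at 25.5 to 27.8 CPM in WT and 1.44, 3.73, 2.81 and 10.8 CPM in KO livers (log2 -2.49). *Hcn3* (log2 -2.51), *Jph1* (-2.60) and *Pkdrej* (-2.39) were the others.

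Few genes of bile acid synthesis passed the test. Over all genes, 0.702% were called lower. Of the 12 classic pathway genes, 1 was called lower, and 11 had a negative log2 fold change (median -0.28). That gene was *Cyp7a1*, the rate-limiting enzyme, at 170, 68.9 and 104 CPM in WT and at 27.9, 28.3, 26.9 and 66.1 CPM in KO livers. KO mouse 4 reached nearly the lowest WT value, and the call was close to the threshold (log2 -1.61, SE 0.40, adjusted p = 0.0486). It was lost when any 1 of the WT mice or of KO mice 1 to 3 was left out. The left-out WT library had *Cyp7a1* at 14.9 CPM, below the KO range of 25.5 to 63.1 CPM on the scale of 8 libraries, and with it put back the call was also lost. *Cyp8b1*, the sterol 12α-hydroxylase, was at 441, 210 and 269 CPM in WT and at 179, 260, 37.9 and 53.0 CPM in KO mice. KO mice 1 and 2 thus lay at or near the WT range and mice 3 and 4 below it (log2 -1.21, SE 0.63, adjusted p = 0.249). Of 7 alternative sterol hydroxylases, *Cyp46a1*, the cholesterol 24-hydroxylase, was called lower from a low level (1.41 to 4.45 against 0.276 to 1.21 CPM). *Cyp7b1*, of the alternative pathway, did not pass (log2 -0.54, adjusted p = 0.367). *Ch25h*, the cholesterol 25-hydroxylase, had the highest fold change of the 7, from at most 0.135 CPM in WT to between 0.194 and 0.468 CPM in KO livers. It did not pass in edgeR (log2 2.68, SE 0.91, adjusted p = 0.107), and voom with quality weights called 1 gene of the list higher.

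Of 7 bile acid uptake genes 1 was called lower, and of 11 export genes tested 1 was called higher. Over all genes the shares called lower and higher were 0.702% and 3.18%. *Slco1a4*, an organic anion transporter, fell from 94.9, 87.8 and 95.2 CPM to 18.5, 39.6, 26.7 and 23.5 CPM (log2 -1.77, SE 0.22, adjusted p = 0.00923). The left-out WT library had *Slco1a4* at 35.9 CPM, inside the KO range of 17.3 to 37.0 CPM on the scale of 8 libraries, and the call was lost with it put back and without WT mouse 3. *Slc10a1*, the main sodium-dependent bile acid carrier NTCP, was at 621 to 793 CPM in WT and 223 to 468 CPM in KO livers, without overlap but short of the threshold (log2 -0.93, adjusted p = 0.0564). *Slco1b2* was likewise short of it (log2 -0.76, adjusted p = 0.0528), and the median of the 7 was -0.76. The canalicular bile salt export pump *Abcb11* was at 722 to 972 CPM in WT and 745 to 900 CPM in KO livers (log2 -0.06, SE 0.14). The export gene called was *Slc51b*, the beta subunit of the basolateral bile acid exporter, which went from 0.0769 to 0.162 CPM in WT to 0.472, 0.484, 1.81 and 3.14 CPM in KO mice (log2 3.63, adjusted p = 0.0430). That call was lost when any 1 of the WT mice or KO mouse 3 was left out and with the left-out WT library put back. The basolateral pumps *Abcc3* (log2 -0.42) and *Abcc4* (0.53) did not pass. *Abcb4*, the canalicular phospholipid floppase, was at 262 to 323 CPM in WT and 342 to 438 CPM in KO livers (log2 0.39, adjusted p = 0.0867). *Abcc2*, a canalicular conjugate pump, was at 812 to 945 CPM against 600 to 754 CPM (log2 -0.40, adjusted p = 0.0772). Neither overlapped between groups, as was so for 28.0% of all genes tested, and neither passed in edgeR. DESeq2 called 2 export genes higher and, by its adjusted p alone, 3 higher and 1 lower.

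Among 11 genes of bile acid sensing, *Egr1*, an immediate early transcription factor that bile acids can induce, rose from 3.42, 8.87 and 6.53 CPM to 73.1, 120, 41.2 and 33.2 CPM (log2 3.41, adjusted p = 0.0163). *Nr1h4*, which encodes FXR, stood at 120 to 145 CPM in WT and 72.3 to 88.8 CPM in KO livers. That is a shift of -0.68 with an adjusted p of 0.0151, within the fold threshold. *Nr0b2*, the FXR-induced repressor SHP, was at 21.0, 29.3 and 38.9 CPM in WT and at 106, 82.1, 41.3 and 17.5 CPM in KO mice 1 to 4. KO mice 1 and 2 were above all WT mice and mouse 4 below them, so that the mean difference did not pass (log2 1.05, SE 0.54, adjusted p = 0.247).

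Of 12 *Cyp2c* family members tested, 2 were called lower, beside 0.702% of all genes. They were *Cyp2c70* itself and *Cyp2c67* (323 to 355 against 82.1 to 180 CPM, log2 -1.34). By the adjusted p alone 3 were lower, 11 had a negative sign, and the median was -0.83. These genes lie in a cluster of close copies, and reads that match several of them may be divided between members in a way the counts do not show. Among 21 sulfotransferase and glucuronosyltransferase genes tested, *Sult5a1* and *Ugt1a5* (log2 -1.51) were called lower, and *Sult2a8*, which sulfates bile acids, was at 851, 883 and 1040 CPM in WT and at 871, 902, 569 and 304 CPM in KO mice. Of 14 targets of the xenobiotic receptors CAR and PXR, 0 were called higher by edgeR, beside 3.18% of all genes (1 at an unadjusted p under 0.05, 0 by DESeq2). *Cyp3a11*, a PXR target, lay at 3310 to 5070 CPM in WT and 2960 to 5490 CPM in KO livers. *Cyp2a5*, a CAR-responsive coumarin hydroxylase, fell from 1350, 937 and 1330 CPM to 244, 375, 401 and 310 CPM (log2 -1.86, SE 0.20, adjusted p = 0.00566).

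Among lipid and carbohydrate genes part were called, nearly all of them lower, beside 0.702% of all genes called lower. Of 25 cholesterol synthesis and uptake genes, 6 were lower by the adjusted p alone and 1 beyond the fold threshold, and the median was -0.39. *Stard4*, a cholesterol transfer protein gene, fell from 219, 238 and 214 CPM to 107, 114, 108 and 105 CPM (log2 -1.04, SE 0.08, adjusted p = 0.00133). In the left-out WT library *Stard4* was lower still, at 40.0 CPM beside 99.8 to 107 CPM in KO livers on the scale of all 8 male chow libraries. Of 19 fatty acid and triglyceride synthesis genes, *Thrsp* (log2 -1.37) and *Me1* (-1.25) were called lower. The calls became 0, 0 and 3 without WT mouse 2, 3 or 4, and 1 with the left-out WT library put back. Of 25 genes of fatty acid oxidation, *Cyp4a14* and *Ppara* were called lower. The calls became 0, 0 and 3 without WT mouse 2, 3 or 4. They were 0 without KO mouse 1 or 3, and 1 with the left-out WT library put back. *Ppara*, the fatty acid receptor that drives oxidation genes, fell from 150 to 167 CPM in WT to 49.3 to 113 CPM in KO livers (log2 -1.02, adjusted p = 0.0415). In glycogen and glucose metabolism 3 of 19 genes were called lower. The calls became 1, 1 and 3 without WT mouse 2, 3 or 4, and 0 with the left-out WT library put back. *Gys2*, the liver glycogen synthase, fell from 216 to 243 CPM to 80.9 to 118 CPM (log2 -1.24, adjusted p = 0.00477), and *Pklr*, the liver pyruvate kinase, fell by 1.05 on the log2 scale. *Apoa4*, a lipoprotein gene, went the other way, from 14.2 to 28.3 CPM to 42.4 to 91.3 CPM (log2 1.52). In the left-out WT library *Apoa4* was at or above the lowest KO mouse. Its call was lost without WT mouse 2 or 3 or KO mouse 3 and with that library put back.

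Of 24 cholangiocyte markers tested, 18 were called higher against a background of 3.18%, all 24 had a positive sign, and the median log2 fold change was 1.94. *Krt19*, the ductal keratin, was at 0.856, 1.08 and 1.30 CPM in WT and at 4.62, 2.47, 6.27 and 4.53 CPM in KO livers (log2 2.05, SE 0.34, adjusted p = 0.0183). *Epcam*, an epithelial adhesion molecule of duct and progenitor cells, was at 0.785 to 1.80 CPM in WT and 4.55 to 10.6 CPM in KO livers (log2 2.36). *Spp1*, which encodes osteopontin and is made by duct cells and by macrophages, rose from 27.9, 26.5 and 23.3 CPM to 150, 130, 478 and 1220 CPM (log2 4.25, SE 0.85, adjusted p = 0.0277). *Cldn4* (log2 4.79), a tight junction gene, and *Cftr* (3.59), the chloride channel of duct cells, rose from under 0.11 CPM. *Krt7* just missed the threshold (log2 1.39, adjusted p = 0.0521). Summed over the 27 markers, the level was 542 to 587 CPM in WT and 1078 to 2893 CPM in KO livers. In whole liver, more cells of a type and more RNA per cell cannot be told apart. Without KO mouse 4, 17 of the 24 were called, without KO mouse 3, 7, and with the left-out WT library put back, 7. Without WT mouse 2, 3 or 4, the calls were 2, 1 and 2 of 25 tested, with medians from 1.77 to 1.97.

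Part of the genes of matrix and its turnover were called higher. Among 33 collagens and matrix proteins, 10 were called, beside 3.18% of all genes, 23 were not, and 31 had a positive sign (median 1.31). *Col1a1*, of fibrillar collagen, was at 6.88, 9.26 and 17.4 CPM in WT and at 48.6, 23.3, 113 and 239 CPM in KO livers (log2 3.24, SE 0.80, adjusted p = 0.0483). *Thbs1*, thrombospondin, which can activate TGF-beta, rose from 0.513 to 1.57 CPM to 7.23 to 15.9 CPM (log2 3.67, adjusted p = 0.00940). Those 10 calls became 1, 0 and 2 without WT mouse 2, 3 or 4, 2 without KO mouse 3, 16 and 21 without KO mouse 1 or 2, and 3 with the left-out WT library put back. Among 28 genes of matrix remodelling and TGF-beta, 13 were called higher and 15 were not (median 1.59). Those 13 became 1, 1 and 3 when WT mouse 2, 3 or 4 was left out, 6 without KO mouse 3, and 4 with the left-out WT library put back. *Timp1*, an inhibitor of matrix metalloproteinases, went from 0.0769 to 0.114 CPM to 1.08, 0.799, 3.64 and 2.31 CPM (log2 4.40), and *Mmp13*, the interstitial collagenase, rose by 4.53 on the log2 scale. *Tgfb1* itself did not pass (log2 0.65, adjusted p = 0.148). Of 17 stellate cell markers, *Lum* (log2 2.20) and *Pdgfrb* (1.30) were called higher, while *Acta2*, the activation marker, was at 1.37, 1.21 and 8.5 CPM in WT and 2.59 to 6.89 CPM in KO livers and overlapped. Both stellate calls were lost when any 1 of the WT mice or KO mouse 3 was left out and with the left-out WT library put back.

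Genes of lipid-associated macrophages were called more often than those of resident Kupffer cells, a difference that was not itself tested. Of 19 genes of lipid-associated macrophages, 9 were called higher, beside 3.18% of all genes (median 1.38). Those 9 became 1, 1 and 4 when WT mouse 2, 3 or 4 was left out, 3 without KO mouse 3, and 5 with the left-out WT library put back. *Trem2*, their lipid-sensing receptor, stood at 0.485, 0.436 and 0.352 CPM in WT and at 4.81, 2.98, 10.4 and 19.5 CPM in KO livers (log2 4.47, SE 0.72, adjusted p = 0.0176). *Cd9* rose by 1.48 on the log2 scale. Of 17 monocyte markers, 4 were called higher, among them *Cx3cr1* (log2 3.36) and *Ms4a7* (3.78), while *Ccr2* was at 0.799 to 1.68 CPM in WT and at 3.23, 2.25, 6.04 and 26.8 CPM in KO mice and did not pass (adjusted p = 0.0780). The 4 monocyte calls became 0, 0 and 1 when WT mouse 2, 3 or 4 was left out, 0 without KO mouse 3, 6 without KO mouse 2 or 4, and 2 with the left-out WT library put back. Of 17 Kupffer markers, 0 were called higher by edgeR (3 at an unadjusted p under 0.05, 0 by DESeq2) and *Cd163* was lower, with 13 of 17 signs positive and a median of 0.56, which was 0.03 without KO mouse 4. The *Cd163* call was lost when any 1 of the WT mice or of KO mice 2 and 3 was left out and with the left-out WT library put back. *Clec4f*, which marks Kupffer cells, was at 98.4 to 115 CPM in WT and at 83.5, 106, 95.1 and 252 CPM in KO mice, so that only mouse 4 stood above WT. The test of *Clec4f* gave a log2 fold change of 0.34 with SE 0.37. That of *Timd4*, an embryonic Kupffer cell receptor, gave -0.48 with SE 0.40.

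**Figure D2:**
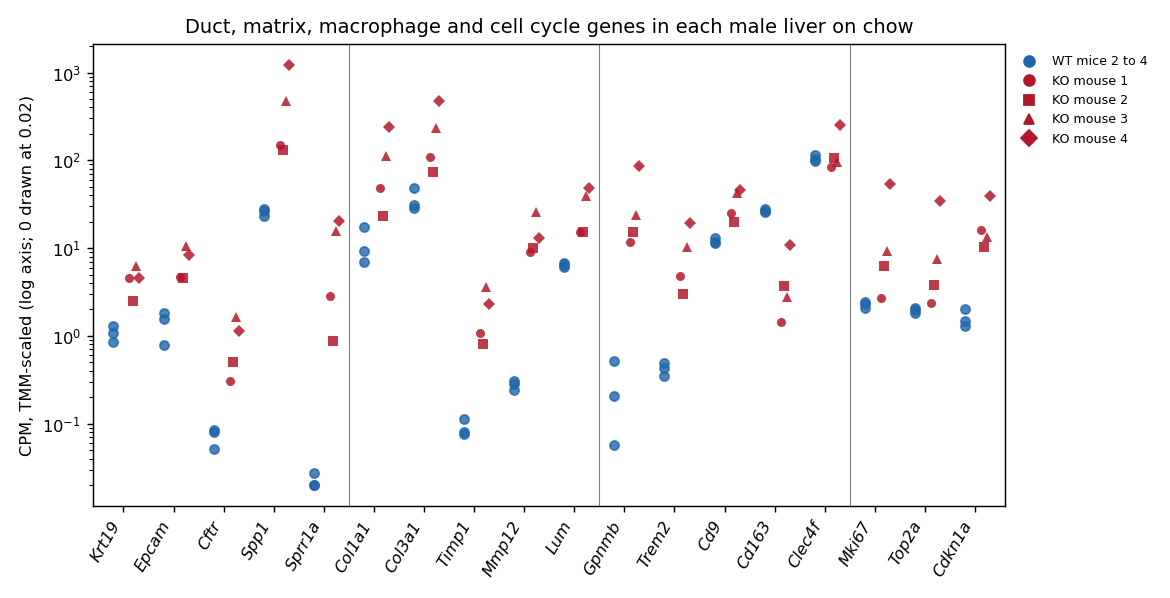
CPM on a log axis of 18 genes in each male liver on chow, with WT mice 2 to 4 as blue points and KO mice 1 to 4 as red symbols, grouped from left to right as duct and epithelial, matrix, macrophage and cell cycle genes. *Spp1* runs from 130 to 1220 CPM in KO mice, *Cd163* is lower in all 4, and *Mki67* is high in KO mouse 4.

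Of all genes tested, 3.18% were called higher and 0.702% lower, so 0 calls in lists of 10 to 25 genes is near that background. *S100a8* and *S100a9*, of neutrophils and some monocytes, were called higher (log2 2.51 and 2.70). They rose only from 0.0513 to 0.314 CPM in WT to 0.532 to 1.13 CPM in KO livers, and only 3 of 14 neutrophil markers had enough counts to test. Both calls were lost without WT mouse 3 and with the left-out WT library put back, and 1 was left without WT mouse 2, WT mouse 4 or KO mouse 3. Of 18 T and NK cell markers, 0 were called in either direction by edgeR, 0 at an unadjusted p under 0.05 and 0 by DESeq2. Of 13 B and plasma cell markers 0 were called by edgeR, 2 higher at an unadjusted p under 0.05, and 0 by DESeq2. Of 10 MHC class II genes, 0 were called by edgeR (1 higher at an unadjusted p under 0.05, 0 by DESeq2), although all 10 had a positive sign and the median was 0.97. A fit with all male groups called 1 of them, and a fit with a replicate block called 7. *Cd74*, the invariant chain, was at 60.3, 57.8 and 173 CPM in WT and 109 to 290 CPM in KO livers, and WT mouse 4 lay inside the KO range. Of 25 interferon-stimulated genes, 0 were called by edgeR (7 higher at an unadjusted p under 0.05, 2 by DESeq2).

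Chemokines and cytokine feedback genes rose in part, beside 3.18% of all genes called higher. Of 19 chemokine genes, 7 were called higher (median 1.65), of which 2 were left without WT mouse 2 and 2 without WT mouse 3. *Ccl2*, the main monocyte attractant, was at 0.200, 0.385 and 0.379 CPM in WT and at 3.82, 8.18, 5.49 and 5.43 CPM in KO livers (log2 4.14, SE 0.37, adjusted p = 0.00283). *Cxcl1*, a neutrophil attractant, was at 3.23 to 3.68 CPM in WT and at 39.4, 63.9, 13.9 and 12.0 CPM in KO mice, highest in mice 1 and 2 (log2 3.23, adjusted p = 0.0256). *Cxcl14* rose by 3.40 on the log2 scale. *Ccl4* had a fitted rise of 4.24 from at most 0.0812 CPM in WT, at or under the floor of 3 counts. That fitted value depends on the offset edgeR adds to low counts. Of 26 cytokine and signalling genes, 8 were called higher, led by *Tnfaip3*, an inhibitor of NF-kappaB (log2 2.78), *Il1rn*, the antagonist of interleukin 1 (2.72), and *Tnfaip6* (2.64). The 8 calls became 0, 0 and 2 when WT mouse 2, 3 or 4 was left out, 5 without KO mouse 3, and 2 with the left-out WT library put back. The cytokines *Il1b* (log2 1.11, adjusted p = 0.0595) and *Tnf* (1.66, adjusted p = 0.133) did not pass. Of 29 Fc, ITAM and innate receptor genes, 4 were called higher, among them *Clec4d*, which had 1 WT read against 79, and *Clec4e* (log2 2.62). Those 4 became 0, 0 and 1 when WT mouse 2, 3 or 4 was left out, 7 without KO mouse 1, 2 without KO mouse 3, and 2 with the left-out WT library put back, while DESeq2 called 17.

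Of 22 secreted acute phase proteins, *Lcn2*, *Saa1*, *Saa2* and *Orm2* were called higher, beside 3.18% of all genes, and the median was 0.50. The 4 calls became 0, 0 and 2 when WT mouse 2, 3 or 4 was left out, 0 in a fit of all male groups, and 3 with the left-out WT library put back. *Lcn2*, lipocalin, rose from 0.770, 1.10 and 1.76 CPM to 19.1, 13.5, 48.5 and 41.2 CPM (log2 4.65, SE 0.56, adjusted p = 0.00747). *Saa1* was at 23.9 to 36.7 CPM in WT and at 209, 136, 267 and 81.5 CPM in KO livers (log2 2.53). *Saa1* and *Saa2* are near-identical, and their reads may be shared. *Hamp*, which encodes hepcidin, was at 441 to 645 CPM in WT and 257 to 508 CPM in KO livers (log2 -0.71, adjusted p = 0.115).

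Of 18 genes of the ER and integrated stress response, 4 were called higher, beside 3.18% of all genes, and 14 were not called. By the adjusted p alone 7 were higher, 4 had a negative sign, and the median was 0.86. *Atf3*, a stress transcription factor, rose from 0.599, 1.08 and 0.948 CPM to 9.15, 10.2, 14.2 and 6.50 CPM (log2 3.51, SE 0.34, adjusted p = 0.00373). *Ddit3*, which encodes CHOP, was at 4.71 to 5.39 CPM in WT and 9.31 to 13.6 CPM in KO livers (log2 1.15). The ER folding genes *Creld2* (log2 1.64) and *Sdf2l1* (1.40) rose, and the chaperone *Hspa5* fell just short (log2 0.90, adjusted p = 0.0509). *Trib3*, a stress-induced pseudokinase, was at 8.88 to 18.6 CPM in WT and 4.47 to 9.76 CPM in KO livers and did not pass. The 4 calls became 1, 1 and 2 when WT mouse 2, 3 or 4 was left out, and 2 with the left-out WT library put back.

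Cell cycle genes had the largest median of any list, while 1 of 32 was called higher, beside 3.18% of all genes. Their median log2 fold change was 2.55, and 30 of the 32 were positive. The gene called was *Cdkn1a*, the cell cycle inhibitor p21 (1.28 to 2 CPM in WT, 16, 10.3, 13.4 and 39.6 CPM in KO livers, log2 3.64). DESeq2 called 20 of the 32. *Mki67*, the proliferation marker, was at 2.09 to 2.45 CPM in WT and at 2.71, 6.20, 9.29 and 53.9 CPM in KO mice 1 to 4 (log2 2.98, adjusted p = 0.102). KO mouse 1 was close to WT and mouse 4 several times above any other. *Ccnb1*, the mitotic cyclin, was at 0.228 to 0.359 CPM in WT and at 0.330, 1.45, 3.13 and 24.2 CPM in KO mice. Without KO mouse 4 the median was 1.25 and 4 of the 32 genes were called, without KO mouse 1, 8, and without KO mouse 2, 2. Without any 1 of the WT mice, or with the left-out WT library put back, 0 were called. In that library *Cdkn1a* was at or above the lowest KO mouse. KO mouse 4 also had the lowest *Alb* (40300 CPM), and the highest *Clec4f*, *Adgre1* (82.8 CPM) and *Ccr2*. The part of KO mouse 4 in the other list medians was not tested beyond leaving it out.

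**Figure D3:**
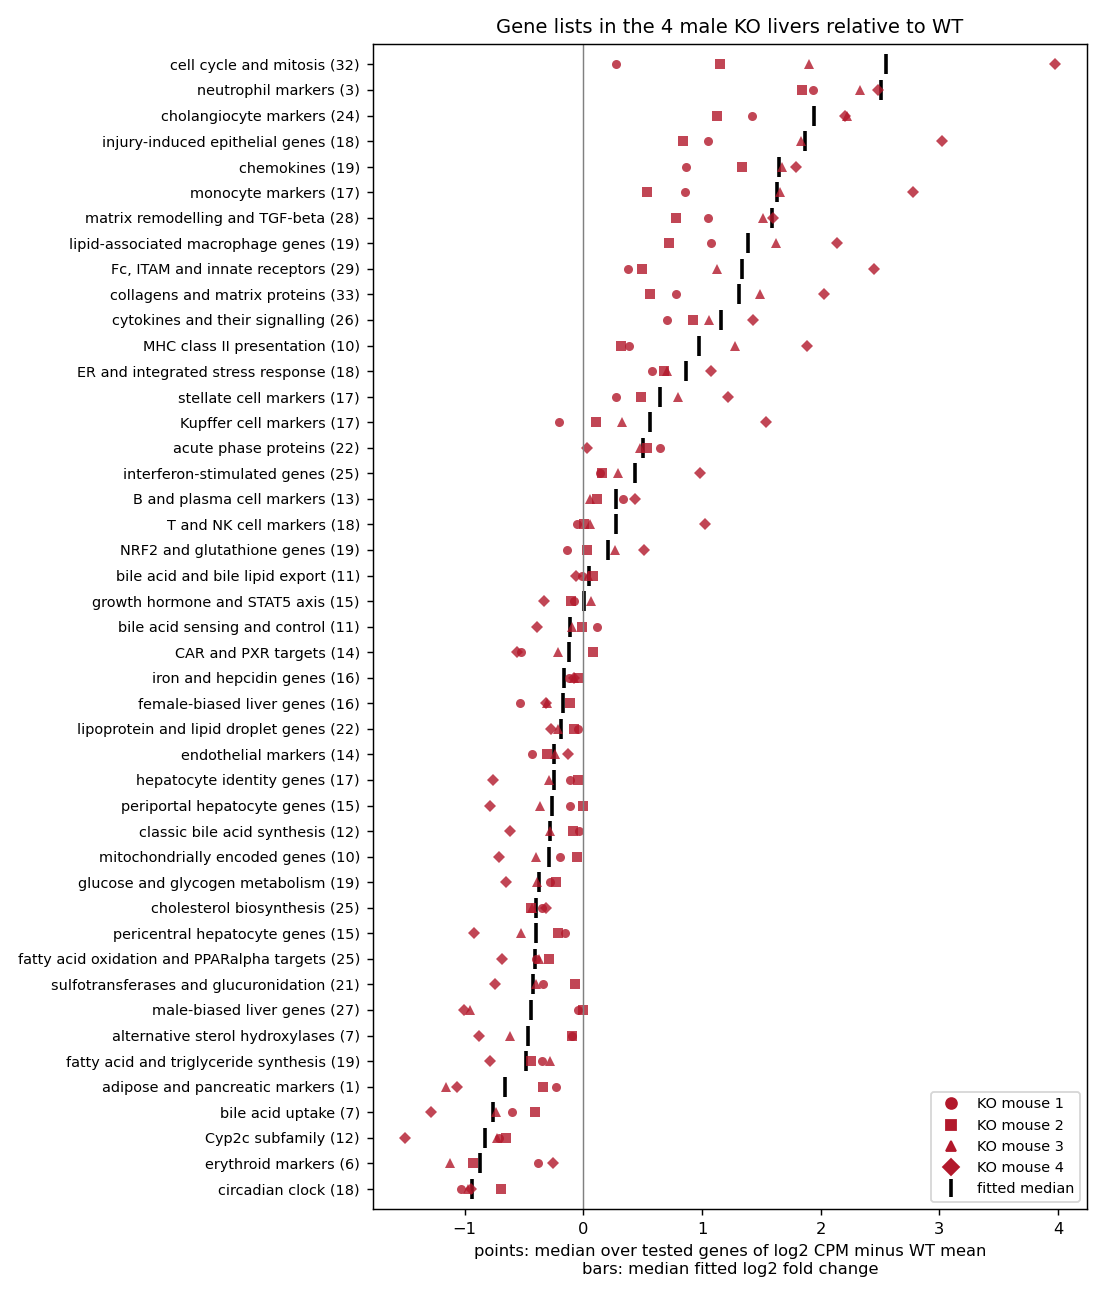
For each of 45 gene lists, with the number of genes tested in brackets, red symbols give the median over its genes of log2 CPM minus the WT mean in each KO mouse and the black bar the median fitted log2 fold change. KO mouse 4 lies far to the right for cell cycle, injury, monocyte and innate receptor lists, while the 4 mice lie close together for the clock and cholesterol lists.

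The circadian clock list had the most falls of any list. The clock is a feedback loop in which the activators ARNTL and CLOCK (or NPAS2) switch on *Per*, *Cry* and *Nr1d* genes and outputs such as *Dbp* and *Tef* through E-box sites, and in which NR1D and ROR proteins set the level of *Arntl*, *Npas2* and *Nfil3* through ROR elements. Of 18 clock genes, 8 were called lower against a background of 0.702% and 3 higher, and by the adjusted p alone 12 were lower. Activators and outputs differed in opposite directions. To show the sites named above, these are promoters of 3 genes called lower and 1 called higher, from RefSeq (GRCm38.p6), read on the gene's strand from 250 bases before to 50 after its start. Capitals mark CACGTG (E-box) in *Ciart* and *Bhlhe41*, TTATGNAA (D-box, the site of DBP, TEF and HLF) in *Per3*, and the ROR element in *Arntl*.
Ciart chr3:95882179-95882478 minus strand: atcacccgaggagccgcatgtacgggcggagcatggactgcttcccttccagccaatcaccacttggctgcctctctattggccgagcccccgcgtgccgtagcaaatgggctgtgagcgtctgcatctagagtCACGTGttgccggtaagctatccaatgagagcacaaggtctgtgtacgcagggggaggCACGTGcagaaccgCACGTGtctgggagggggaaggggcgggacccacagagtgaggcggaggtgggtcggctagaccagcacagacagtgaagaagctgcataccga
Bhlhe41 chr6:145865371-145865670 minus strand: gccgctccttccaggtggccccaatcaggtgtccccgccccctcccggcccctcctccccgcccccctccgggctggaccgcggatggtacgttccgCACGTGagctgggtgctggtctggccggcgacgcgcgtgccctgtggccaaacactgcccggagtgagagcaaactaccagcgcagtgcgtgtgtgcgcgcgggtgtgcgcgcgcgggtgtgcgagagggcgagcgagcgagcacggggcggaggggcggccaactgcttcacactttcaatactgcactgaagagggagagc
Per3 chr4:151044616-151044915 minus strand: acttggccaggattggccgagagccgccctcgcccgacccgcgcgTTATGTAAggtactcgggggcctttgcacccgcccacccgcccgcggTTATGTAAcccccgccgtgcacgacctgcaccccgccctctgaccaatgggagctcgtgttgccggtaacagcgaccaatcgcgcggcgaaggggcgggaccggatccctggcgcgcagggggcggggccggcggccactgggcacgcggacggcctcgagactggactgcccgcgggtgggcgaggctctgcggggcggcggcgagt
Arntl chr7:113207261-113207560 plus strand: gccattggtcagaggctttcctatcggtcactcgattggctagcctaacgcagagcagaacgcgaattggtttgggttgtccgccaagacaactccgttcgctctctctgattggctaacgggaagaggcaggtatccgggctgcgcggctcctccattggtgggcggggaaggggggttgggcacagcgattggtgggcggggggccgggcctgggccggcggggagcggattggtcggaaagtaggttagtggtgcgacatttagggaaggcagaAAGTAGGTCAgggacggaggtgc
On either strand, CACGTG was in the promoters of 3 of the 7 matched genes called lower (*Ciart* with 3 copies, *Bhlhe41* and *Tef*) and in 7.15% of all 32851 promoters of this length. The D-box letters were in 1 of the 7, *Per3*, with 2 copies, and in 3.38% of all promoters. The ROR element letters were in 1 of the 3 called higher, *Arntl*, and in 0.219% of all. The 6 matched clock genes that were not called held these letters too: CACGTG in 2 of 6 and the D-box in 1. The related CACGTT was in 3 of those 6, in 0 of the 7 called lower and in 4.68% of all promoters. *Per2* had no entry. A gene was counted if any of its promoters held the letters, with 8 promoters for the 7 genes, 4 for the 3 and 9 for the 6. The shares of all are per promoter, so they are not on the same scale. A further *Arntl* promoter, chr7:113207215-113207514, held 0 ROR elements.

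Among activators, *Arntl* was at 4.65, 2.90 and 2.06 CPM in WT and at 28.7, 17.9, 9.74 and 13.7 CPM in KO livers (log2 2.45, SE 0.42, adjusted p = 0.0189). *Npas2* was at 0.244 to 0.457 CPM in WT and at 10.1, 4.36, 1.81 and 3.40 CPM in KO livers (log2 3.82, SE 0.64, adjusted p = 0.0187). *Clock* did not differ beyond the spread (log2 0.22). *Nfil3*, the repressor that competes for D-box sites, was also called higher (log2 1.46).

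Among outputs and repressors, *Dbp*, a D-box activator, was at 143, 132 and 141 CPM in WT and at 3.04, 7.31, 16.7 and 28.4 CPM in KO livers (log2 -3.32, SE 0.62, adjusted p = 0.0237). *Ciart*, a repressor of CLOCK and ARNTL, was at 12.3, 8.98 and 11.0 CPM against 0.377, 0.460, 0.978 and 1.45 CPM (log2 -3.70, adjusted p = 0.00648). The WT mice were tightly grouped and the KO mice were all far below. *Bhlhe41* (log2 -3.17), a further repressor, and *Usp2* (-2.81), a deubiquitinase gene with strong rhythm, showed the same. *Per3* (log2 -2.21), *Tef* (-1.65), *Per2* (-1.07) and *Hlf* (-1.06) completed the 8, and *Nr1d1*, the repressor REV-ERB alpha, was lower by 0.47 on the log2 scale (adjusted p = 0.0494).

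In these clock genes the 3 WT mice stood apart from nearly all other mice of the series. Whether the male KO mice on chow also differed from the rest was not tested. On a common scale over 32 libraries, *Dbp* was at 128 to 137 CPM in the 3 WT males on chow and at 0.805 to 84.1 CPM in the 28 mice of the 7 other groups, KO and WT. *Arntl* was at 1.97 to 4.46 CPM in the 3 and at 6.83 to 32.6 CPM in the 28. For 7 of the 11 called clock genes (*Dbp*, *Arntl*, *Per2*, *Npas2*, *Tef*, *Nfil3* and *Bhlhe41*) 0 of the 28 mice reached the range of the 3. The left-out WT library, scaled with the 7, had *Dbp* at 15.9, *Arntl* at 9.45, *Ciart* at 0.111, *Per3* at 1.19 and *Npas2* at 4.59 CPM. All 11 called clock genes in that library lay beyond the 3 other WT mice on the KO side, and 10 lay within or past the KO range, while over all genes 46.2% of those called higher and 67.8% of those called lower lay on that side. With it put back, 0 of the 18 clock genes were called. Without WT mouse 2, 3 or 4, 0 were called higher and 4, 3 and 4 lower. Neither labels nor methods give the hour at which each mouse was killed, so genotype and hour of collection cannot be told apart for these genes. The same 3 WT mice are the reference for every gene of the male comparison. For all its other calls the hour was likewise not tested and cannot be told apart from genotype.

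**Figure D4:**
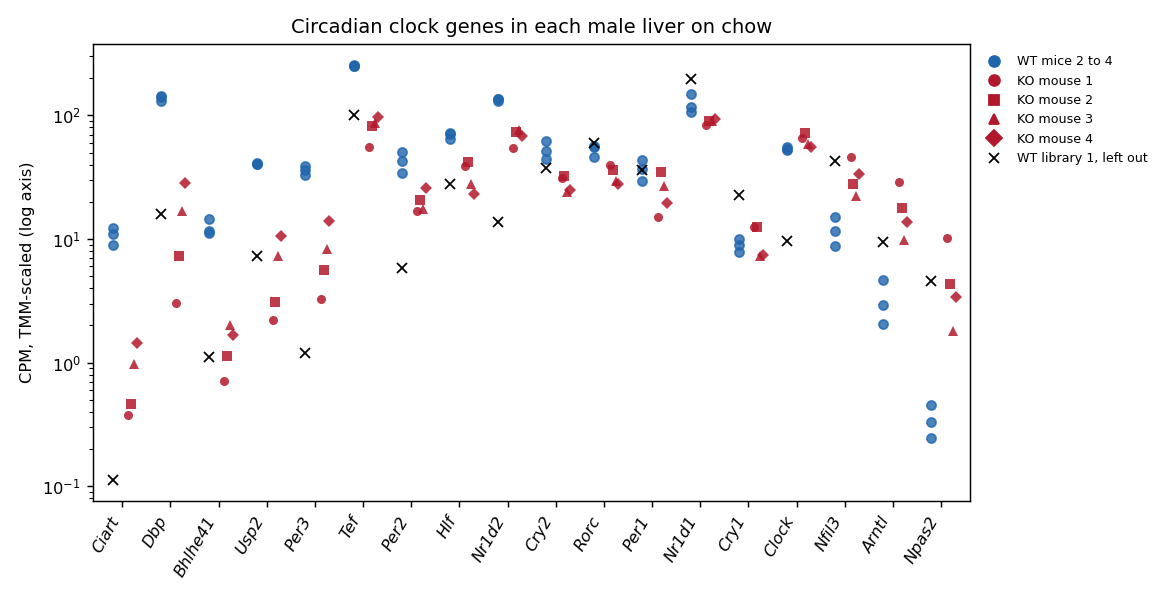
CPM on a log axis of the 18 clock genes, ordered by log2 fold change, with WT mice 2 to 4 as blue points, KO mice 1 to 4 as red symbols and the left-out WT library, scaled with all 8 male chow libraries, as black crosses. From *Ciart* to *Hlf* and from *Nfil3* to *Npas2* the cross lies with the KO mice or beyond the WT points.

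KO mice 1 and 2 differed from KO mice 3 and 4 in several hepatocyte regulators, which are named after their values were seen and were not tested as a split. *Onecut1*, a hepatocyte transcription factor gene, was at 84.1, 131 and 96.7 CPM in WT, at 5.16 and 4.70 CPM in KO mice 1 and 2, and at 95.8 and 80.9 CPM in mice 3 and 4. *Cish*, a feedback inhibitor induced by growth hormone, was at 50.1 to 88.0 CPM in WT and at 3.40, 3.10, 82.5 and 47.6 CPM in KO mice. *Bcl6*, a repressor that growth hormone lowers, went the other way, at 15.1 to 34.5 CPM in WT and at 140, 113, 26.0 and 27.7 CPM in KO mice. None of the 3 passed the test of genotype. *Igfbp1*, a fasting and stress-responsive binding protein of IGF1, was called higher (9.42 to 19.9 against 127, 218, 45.6 and 70.0 CPM, log2 2.83) and was likewise highest in mice 1 and 2. In the left-out WT library *Igfbp1* was at or above the lowest KO mouse. The call was lost when any 1 of the WT mice was left out and with that library put back.

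Of 27 male-biased liver genes, 1 was called lower, *Susd4* (log2 -1.48), while 20 had a negative sign and the median was -0.44. *Hsd3b5*, a strongly male-biased steroid dehydrogenase, was at 326 to 428 CPM in WT and at 280, 263, 138 and 102 CPM in KO mice (log2 -0.90, adjusted p = 0.130), and *Mup20*, a male pheromone carrier, was at 1020 to 1200 CPM in WT and 1550 to 2210 CPM in KO livers (log2 0.81, adjusted p = 0.0274), though *Mup* genes are near copies of each other. Per KO mouse, the median of the list was -0.05 in mouse 1 and -0.96 in mouse 3 relative to WT, with mouse 2 near mouse 1 and mouse 4 near mouse 3. Of 16 female-biased genes tested, *Tox* (log2 -1.99) and *Cyp17a1* (-1.67) were called lower, beside 0.702% of all genes, and 0 higher by edgeR (2 at an unadjusted p under 0.05, 2 by DESeq2). Pericentral and periportal hepatocyte genes had medians of -0.40 and -0.26 and 1 call among 30, *Sds*, a serine dehydratase (log2 -1.23).

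The last question was whether the KO effect differed between the sexes, for which the 7 males were set beside 4 KO and 4 WT females on chow of the same age in 1 fit of 15 libraries. Of 17401 genes tested, the effect was higher in males for 42 (0.241%) and lower for 33 (0.190%) at an adjusted p under 0.05. Over all genes the log2 fold changes of the sexes correlated at r = 0.614, a description across genes, which are not independent. Of 637 genes called in males, 579 had the same sign in females and 311 were called there in the same direction. Over all 17401 genes, 871 were called higher and 195 lower in females. The share of all genes with the same sign was not computed. Of 24 cholangiocyte markers, 16 were called higher in females, with a median of 1.55, and 0 of 24 differed between sexes by the edgeR interaction (3 at an unadjusted p under 0.05, 0 by DESeq2), which does not show that the effects were equal. Other lists had medians further apart. That of the 32 cell cycle genes was 2.50 in males and -0.02 in females, with 0 differing by the edgeR interaction (21 at an unadjusted p under 0.05, 3 by DESeq2). For the 18 ER stress genes the medians were 0.83 and -0.20, with 1 differing by edgeR and 7 by DESeq2. Of 10 MHC class II genes, 8 were called in females and 0 in males, and 0 differed by the edgeR interaction (0 at an unadjusted p under 0.05, 0 by DESeq2).

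*Fgl1*, a secreted hepatocyte protein, was at 109 CPM (SD 15.5, n = 3) in WT and 240 CPM (SD 47.8, n = 4) in KO males, and at 420 CPM (SD 58.2, n = 4) and 289 CPM (SD 35.7, n = 4) in females. The effects were 1.14 and -0.54 on the log2 scale, a difference of 1.68 (SE 0.23, adjusted p = 0.0251). *Ppp1r3b*, which targets phosphatase to glycogen, did not pass in males but fell in females (log2 0.54 and -1.59, difference 2.13, SE 0.34). *Slc7a2*, a cationic amino acid carrier, went from 1037 to 565 CPM in males and from 469 to 943 CPM in females (difference -1.88), and *Arsa*, a lysosomal sulfatase, had the smallest adjusted p (difference -1.20, SE 0.14, adjusted p = 0.00645). In several of these genes the KO means of the sexes lay closer together than the WT means. The WT males of this test are the 3 that stood apart in clock genes. A sex difference in the KO effect therefore cannot be told apart from a trait of those 3 mice. *Crip2*, *Palld* and *St5* were higher in males, and *Inpp4a*, *Acvr1b* and *Rev3l* lower. The counts rested on single libraries: they were 2 and 2 with the left-out WT library put back, 0 and 2, 0 and 1, and 2 and 3 without WT male 2, 3 or 4, 4 and 3 without KO male 2, and 8 and 3 without KO male 3. Without KO male 1 or 4 they were 46 and 22 or 51 and 45. Among females, they were 0 and 1 without WT mouse 2 or 3 or KO mouse 1 or 2, 13 and 12 without WT mouse 1, 119 and 98 without WT mouse 4, and 70 and 28 without KO mouse 4. No clock gene differed by the edgeR interaction (0 of 18, with 13 at an unadjusted p under 0.05 and 9 by DESeq2), and in females 0 of 18 were called by KO (4 at an unadjusted p under 0.05, 0 by DESeq2).

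**Figure D5:**
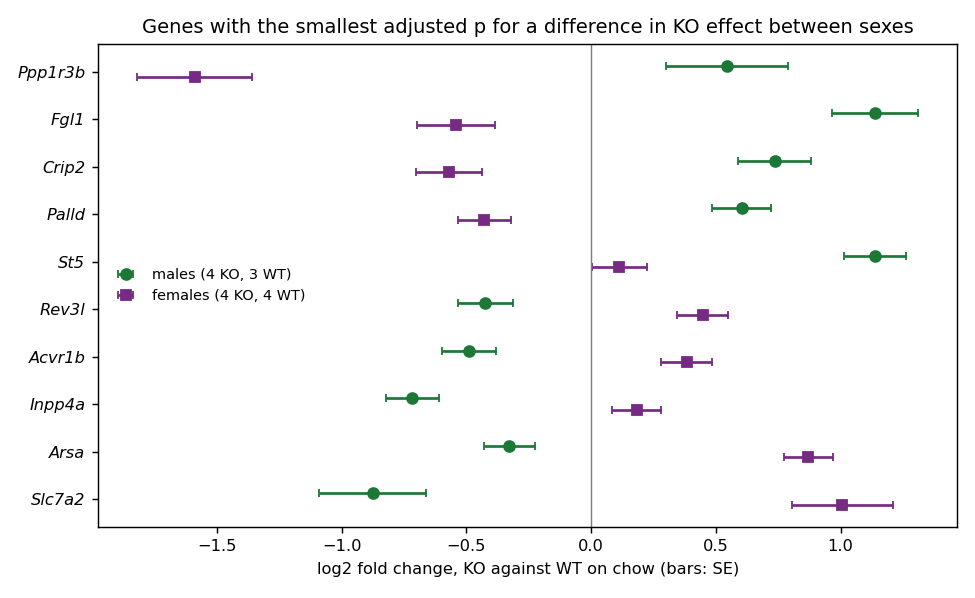
Log2 fold changes of KO against WT on chow in males (green) and females (purple), with SE as bars, for the 5 genes in each direction with the smallest adjusted p for the difference between sexes. *Ppp1r3b* shows the widest gap, 0.54 in males against -1.59 in females.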

How the data were processed

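Whole-liver RNA was extracted with TRIzol and libraries of polyadenylated RNA were sequenced on an Illumina instrument, per the labels and the methods. The authors deposited 1 table with, per mouse, the counts of reads on each gene as whole numbers without normalization, and FPKM values. The submitters' processing notes name HISAT2 2.0.5, featureCounts 1.5.0-p3, DESeq2 1.20.0, GATK 4.1.1.0 and the build mm10, without saying which step each served. Whether counting used strand is not given in the sources used here. The FPKM columns and the authors' own comparison columns (fold changes and p values) were not used.

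The counts were tested with edgeR 4.0.16 in R 4.3.3: filterByExpr, TMM normalization, glmQLFit and glmQLFTest, Benjamini-Hochberg adjustment over all genes tested, with calls below an adjusted p of 0.05 that also exceeded 1 on the log2 scale. Scripts were tested on simulated data. CPM are scaled by TMM. The SE is the log2 fold change divided by the square root of F. A floor of 3 counts was 0.0574 to 0.0856 CPM per library, and intervals cover counting error only. Genes named were *Cyp2c70*, the 10 protein-coding genes called with the largest rise and the 10 with the largest fall (mean count 50 or more, groups not overlapping), in each of 45 lists the fixed members and up to 3 called ones with the largest changes, and 5 genes per direction for the difference between sexes. A few others are named as examples of a list or after their values were seen. The mice compared and the lists were chosen with earlier results of these data known. A few genes that the rule names are not reported here. Where a symbol had several rows, that with the most counts was used. Counts of mice within groups differed by far more than resequencing would give (lowest chi-square per gene 23.0). Alternatives were other scalings, DESeq2 1.42.0, limma 3.58.1 (voom), other filters, a replicate block, other sets of libraries and leaving out each mouse.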

Additional observations from a re-analysis of the deposited data

Results flagged for a closer look

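Among 163 named genes with a level of at least 1 CPM in a KO mouse, 15 had 1 of the 4 KO mice far from the other 3, where the gap to the nearest mouse, as a share of the group's range, exceeded Dixon's 95% critical value. Chance alone flags about 1 gene in 20 where values are normally distributed. The ratio was taken on CPM without logs, for which that rate need not hold, and the genes are not independent. In 12 of them KO mouse 4 was the highest, with these gaps as shares of the range: *Gpnmb* (0.834), *Cyp7a1* (0.964), *Creld2* (0.84), *Tff3* (0.89), *Mki67* (0.871), *Top2a* (0.837), *Ccnb1* (0.883), *Lrat* (0.852), *Clec4f* (0.866), *Ccr2* (0.846), *Ly6c2* (0.891), *Isg15* (0.838). Of these, *Mki67*, *Top2a* and *Ccnb1* are cell cycle genes, *Ccr2*, *Ly6c2*, *Clec4f* and *Gpnmb* are expressed by monocytes or macrophages, and *Cyp7a1* was nearest to WT in that mouse. KO mouse 4 was the lowest for *Mup20* (0.833) and *Inpp4a* (0.872). KO mouse 1 was the highest for *Pkdrej* (0.919).

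The KO effect differed between the sexes by the interaction test for these genes, given as the male minus the female log2 fold change: *Fgl1* 1.68, *Crip2* 1.30, *Palld* 1.03, *Ppp1r3b* 2.13, *St5* 1.03, *Arsa* -1.20, *Slc7a2* -1.88, *Inpp4a* -0.90, *Acvr1b* -0.87 and *Rev3l* -0.87. Each rests on 4 KO males and on the 3 WT males that stood apart in clock genes. Of 22 alternatives, *Acvr1b* lost the call under 11, *Rev3l* under 10, *Inpp4a*, *Palld*, *Slc7a2* and *St5* under 9, *Crip2* and *Ppp1r3b* under 8, and *Fgl1* under 7, while *Arsa* kept it under all.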

How the results depend on the processing

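Genes called higher and lower in KO males were 522 and 115. With library size only, 69 were lower, and the median of all genes moved up by 0.15 on the log2 scale. DESeq2 called 1144 and 187, the replicate block 877 higher, voom with quality weights 176 lower, and a fit with all male groups 1034 higher. With male WT replicate 1 put back the counts were 145 and 21, and leaving out each mouse in turn gave 23 to 687 higher and 17 to 127 lower. *Cyp2c70* kept its call throughout, from -1.79 to -1.65 on the log2 scale when single mice were left out. For the difference between sexes (42 higher and 33 lower in males), library size only gave 16 and 16, DESeq2 288 and 188, the replicate block 25 and 16, and replicate 1 put back 2 and 2, and leaving out each of 15 mice gave 0 to 119 and 1 to 98. In the male comparison, same-numbered mice deviated together at r = 0.07, 0.05 and 0.21, and differently numbered ones at -0.143 to 0.0988. Deviations within a group are not independent, so these values cannot decide whether the numbers pair mice. The main fit left the mice unpaired. Of 86 named genes called, 0 changed sign under any alternative. DESeq2 and edgeR with RLE size factors kept all 86 calls, and library size only kept 72. The block kept 81 (and called 7 of 10 MHC class II genes, 13 of 32 cell cycle genes, 22 of 33 collagens and matrix proteins and 17 of 29 innate receptors). Leaving out KO mouse 4 kept 81 of 85, replicate 1 put back kept 41 of 85, and leaving out WT mouse 3 kept 12. Of the 10 genes named for a sex difference, 0 changed sign, and 140 of 220 refitted values stayed past the threshold. With 3 WT mice, each carries much of the estimate of spread, and genes under the 3-count floor in a group have no usable fold change.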

Other observations

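Clock genes varied within the other groups of the series too, on the scale of all 32 libraries. *Dbp* ran from 1.46 to 57.5 CPM among the 4 female WT mice on chow, from 4.58 to 43.7 CPM among the 4 female KO mice on chow, from 19.4 to 62.8 CPM in male WT mice given SC-435 and from 19.9 to 75.0 CPM in male KO mice given SC-435. *Ciart* reached 24.0 CPM in 1 male KO mouse and 21.8 CPM in 1 male WT mouse given SC-435, above the 8.67 to 11.8 CPM of the 3 WT males on chow. *Per3* had medians of 6.09 and 9.01 CPM in female WT and KO mice on chow.

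Among the 522 genes called higher, KO mouse 4 had the highest level of the 4 for 295 and KO mouse 3 for 148, while KO mouse 2 had the lowest for 264 and KO mouse 1 for 168. The immediate early genes ran against this order: *Fos*, chosen after its values were seen, was at 20.9, 25.7, 10.3 and 2.96 CPM in KO mice 1 to 4 and at 0.143 to 1.10 CPM in WT.

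In the left-out WT library, the 10 mitochondrially encoded genes summed to 23746 CPM, beside 50260 to 54020 CPM in the 3 other WT libraries. The 11 erythroid markers, of which 10 have a row, summed to 650 CPM beside 132 to 159 CPM, and the 17 hepatocyte identity genes to 207149 CPM beside 90214 to 98334 CPM.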
